A study of Mus musculus with 816 samples.

Results

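Cultured mouse microglia that had received a type I interferon, IFNa or IFNb, for 24 h were compared directly with microglia that had received the type II interferon IFNg for the same time. The comparison covered 27 cultures of 816 samples in the series. The 18 type I cultures (8 with IFNa at 0.0008 µg/µl and 10 with IFNb at 0.0001 µg/µl) and the 9 IFNg cultures (0.0001 µg/µl) were chosen by their labelled treatment and time alone, and every gene of the table was considered. The direct contrast addresses which genes tell the interferon types apart in microglia. Because IFNa was given at a higher mass dose than the other interferons, and because only a single dose of each was used, a difference of type cannot be told apart from a difference of dose.

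Primary microglia of newborn mice, bought from a supplier, were plated and given the stimulus in fresh medium on the fourth day. The labels give neither strain nor genotype. RNA was primed with barcoded oligonucleotides, the cDNAs of many wells were pooled and amplified together, and libraries of transcript 3′ ends were sequenced. Untreated cultures of the same time (n = 40) gave the level from which both types started, and 11 type I, 6 IFNg and 25 untreated cultures at 72 h gave a later time.

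Type I interferons bind the receptor of Ifnar1 and Ifnar2, which works through the kinases Jak1 and Tyk2 and drives a complex that holds Stat2 and Irf9 to interferon-stimulated response elements (ISRE). IFNg binds the receptor of Ifngr1 and Ifngr2, works through Jak1 and Jak2, and acts at gamma-activated sites (GAS). In macrophages and microglia the former is known for an antiviral programme, and the latter for antigen presentation on MHC class II, guanylate-binding proteins and the T cell chemoattractant Cxcl9.

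Values are CPM (reads scaled to a common number of mapped reads, as deposited), and differences are type I minus IFNg on the scale of log2(CPM + 1), each with its standard error. A positive difference means a higher level with type I interferon. A gene was called at a Benjamini-Hochberg adjusted p under 0.05 in limma and an absolute difference of at least 1. Adding 1 CPM understates the change of low genes. The depth, estimated from the value that 1 read takes in each column, was 1215000 to 16420000 mapped reads in the interferon cultures, with medians of 4838000 for IFNa, 3446000 for IFNb and 3703000 for IFNg. The labels do not say which wells came from separate cell preparations, so that p-values measure only the spread between these wells, some of which shared a plate and a cell lot. Cell lot here stands for the header's Source ID entry, such as Sciencell_May16, which the header does not itself call a lot. IFNb and IFNg cultures stood together on 2 plates (6 cultures each), whereas no plate held IFNa together with IFNg. Each difference below is therefore given where it matters beside that of IFNb minus IFNg on the shared plates, with plate in the model, an analysis added after seeing the data.

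Sequences are shown first for the genes whose levels separate the types, because the ISRE and GAS are the DNA letters through which the pathways are known to act. Promoters came from RefSeq (GRCm38.p6), and the 250 bases before a transcript start and the 50 after it were searched on both strands for an ISRE core (GAAANNGAAA, or TTTCNNTTTC on the other strand) and a GAS (TTCNNNGAA, which reads the same on both strands). Of 27025 promoters, 3.49% held the first and 8.47% the second. Each line gives 30 bases before the start of the gene's first listed entry, 5′ to 3′ on the gene's strand, with the motif in capitals. The Socs1 line holds another ISRE core that overlaps the marked one and runs on into the small letters. Single promoters were looked at for genes picked by hand, not for all called genes, and only some of these are shown. First come 4 genes called higher with type I interferon, then 3 called higher with IFNg that also hold an ISRE core. Ifit3b, Rsad2, Slamf8 and Cxcl10 held the core as well and are not shown.
Gm14446 (Ifit1bl1 in RefSeq, chr19:34602053-34602082, minus strand): actctgtaggTTTCATTTTCtgtaggttgg
Ifit3 (chr19:34583363-34583392, plus strand): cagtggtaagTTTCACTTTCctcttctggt
Ifit3, nearer the start (chr19:34583397-34583426, plus strand): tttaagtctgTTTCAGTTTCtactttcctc
Ifit1 (chr19:34640775-34640804, plus strand): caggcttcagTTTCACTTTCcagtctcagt
Ifit1, nearer the start (chr19:34640794-34640823, plus strand): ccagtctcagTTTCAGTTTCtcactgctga
Stat2 (chr10:128270266-128270295, plus strand): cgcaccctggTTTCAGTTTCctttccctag
Gbp2b (chr3:142594700-142594729, plus strand): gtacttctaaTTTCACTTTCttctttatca
Gbp2 (chr3:142620594-142620623, plus strand): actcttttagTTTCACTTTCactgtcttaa
Socs1 (chr16:10785600-10785629, minus strand): agacttgccgGAAAGAGAAAccgaaagcgg

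Among the same hand-picked genes, the GAS letters stood in front of 4 called higher with IFNg (Irf1, Irf8, Serpina3g and Serpina3f). They also stood in front of 1 called higher with type I interferon (Isg20), and all 5 genes are shown in that order. Irf8 held another GAS nearer the start (chr8:120736194-120736223), which is not shown. These are not counts over the called genes.
Irf1 (chr11:53769913-53769942, plus strand): aacagcctgatTTCCCCGAAatgatgaggc
Irf8 (chr8:120736176-120736205, plus strand): gcaaaagtgatTTCTCGGAAagagagcgct
Serpina3g (chr12:104236103-104236132, plus strand): ataagttatagTTCCCAGAAatcacccggt
Serpina3f (chr12:104214412-104214441, plus strand): atcagttctatTTCCTAGAAatcacccatt
Isg20 (chr7:78913340-78913369, plus strand): gctggggagggTTCTTGGAAtttttccttt

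Both kinds of letters therefore stood on both sides of the contrast. Among the 12 genes with the largest differences in each direction, 10 of each had a listed promoter. On the type I side 5 of these held the ISRE core and 1 the GAS, and on the IFNg side 2 held the ISRE core and 2 the GAS. Of the hand-picked genes, H2-Aa, H2-Eb1, Cxcl9, Slfn4, Ms4a4c, Irf7, Cmpk2, Clec9a, Zyx and Naaa held neither before the start. That says only that these letters are not in this window. Over all tested genes 74.3% could be matched to a promoter, so that no share was given for the sets of called genes.

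Of 11988 genes tested at 24 h, 392 (3.27%) were higher with type I interferon and 887 (7.4%) were higher with IFNg. The median difference over all genes was -0.17, and values below can be read against it. That tilt depended on plates and scaling. With culture plate in the model the counts were 407 and 531, after median-ratio scaling 497 and 677, and after quantile normalisation, which moved the median of all genes to 0.01, they were 553 and 592. On the shared plates 10828 genes were tested, of which 300 (2.77%) were higher with IFNb and 292 (2.7%) higher with IFNg, with a median of -0.02. Of the 377 type I calls that could be tested there, 222 were called again, and of the 840 IFNg calls 262 were. None was called in the opposite direction. The 6 IFNb and 6 IFNg cultures of the shared plates are also in the pooled contrast, so these fits are not independent and agreement between them is no separate test. A total of 212 type I genes and 241 IFNg genes were called in the pooled contrast, with plate in the model and on the shared plates alike. For 98 of the 392 genes every type I culture was above every IFNg culture, and for 102 of the 887 every IFNg culture was above every type I culture. Over all 11988 genes tested these counts were 105 and 109. The called genes were chosen by the same difference, so the lack of overlap adds no separate test.

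The most different genes on the type I side were Gm14446, an Ifit1-like gene, at 7.05 ± 0.47, Slfn4 of the Schlafen family at 5.36 ± 0.39, the exonuclease Isg20 at 5.08 ± 0.40 and Ms4a4c, a membrane-spanning protein, at 4.65 ± 0.37. They were followed by Pydc4 at 4.32, Mx2 at 4.25, Gm4955 at 4.11, Ifit3b at 3.85, Ifit3 at 3.80, Pyhin1 at 3.75, Oas2 at 3.60 and Olfml3 at 3.39. On the IFNg side the MHC class II genes H2-Aa (-8.49 ± 0.51), H2-Eb1 (-8.22 ± 0.52) and H2-Ab1 (-6.93 ± 0.37) led, with the serpin Serpina3g at -6.43 ± 0.45 and the invariant chain Cd74 at -6.08 ± 0.33. Gbp2b (-5.62), Serpina3f (-5.29), Clec9a (-5.17), Slamf8 (-4.91), H2-DMa (-4.69), Cxcl9 (-4.31) and Cnn3 (-4.29) came next. Each of these 24 genes was also called on the shared plates in the same direction, in cultures that are part of the pooled contrast that picked them.

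**Figure D1:**
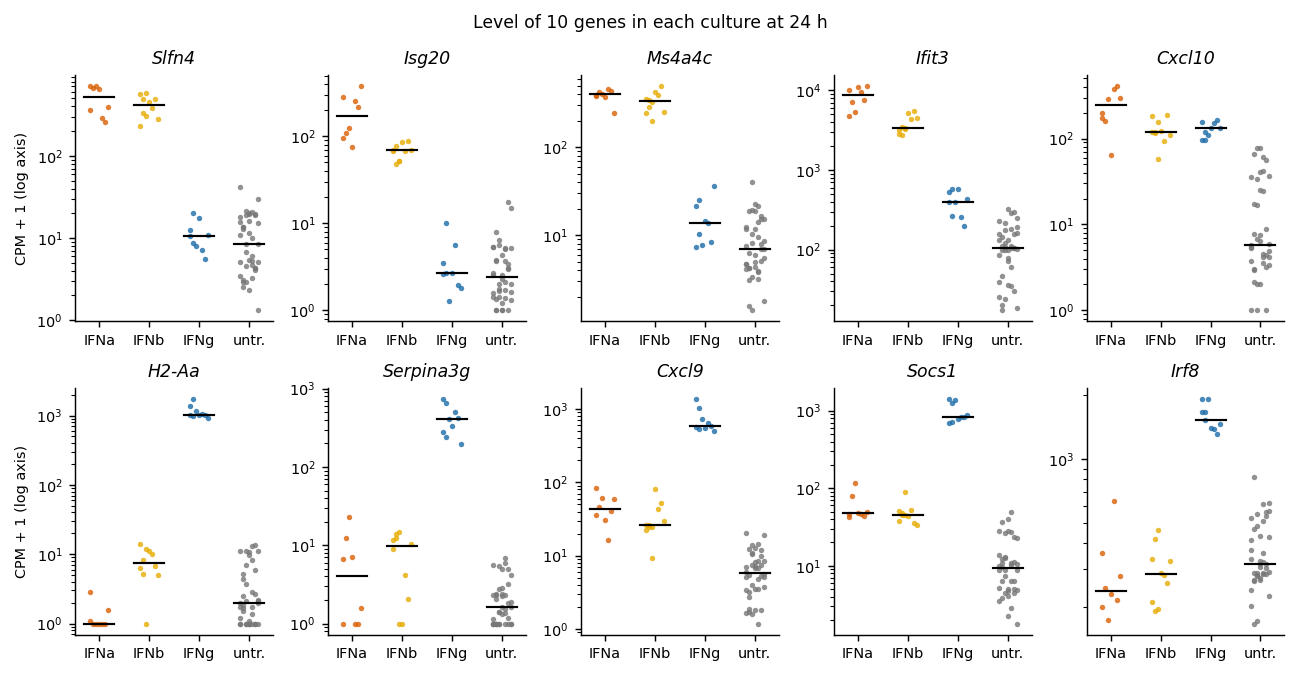
Levels of 10 genes in each 24 h culture (CPM + 1, log axis), for IFNa, IFNb, IFNg and untreated cultures, with a bar at each group's median. The type I cultures lie above the IFNg cultures for Slfn4, Isg20, Ms4a4c and Ifit3, overlap them for Cxcl10, and lie below them for H2-Aa, Serpina3g, Cxcl9, Socs1 and Irf8.

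The receptor chains and their kinases differed little. None of the 4 tested genes of the type I receptor complex (Ifnar1, Ifnar2, Tyk2, Jak1) and none of the 3 of the type II complex (Ifngr1, Ifngr2, Jak2) was called, and their differences lay between -0.31 for Ifngr2 and 0.46 for Jak2. Ifngr1, which binds IFNg, was at 11.8, 31 and 68.7 CPM (lowest, median, highest) with type I interferon and at 7.41, 32.1 and 39.1 with IFNg, and the groups overlapped. Jak2 rose with type I interferon against untreated cultures by 1.06, and its value with IFNg was 0.60.

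Among the STAT factors, Stat2, which belongs to the type I complex, was at 548, 1149 and 1578 CPM with type I interferon and at 135, 205 and 250 with IFNg, without overlap, a difference of 2.43 ± 0.28 (limma, adjusted p = 1.6e-10). Stat3 was higher with IFNg (-1.30 ± 0.21) without overlap, but on the shared plates its difference of -0.99 was not called. Stat5a, Stat5b and Stat6 were not called, with differences from -0.80 to 0.20, and Stat4 was too low to test.

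The interferon regulatory factors lay on both sides, with 1 of 7 tested higher with type I interferon and 2 with IFNg. Irf7, which amplifies type I interferon production, stood at 922, 1925 and 2575 CPM with type I interferon against 160, 272 and 498 with IFNg, without overlap (2.60 ± 0.40). Irf8 and Irf1, both known as targets of IFNg in macrophages, were higher with IFNg. Irf8 was at 172.5, 267 and 629.5 CPM with type I interferon and at 1309, 1530 and 1918 with IFNg, and the groups did not overlap (-2.50 ± 0.20). Type I cultures overlapped untreated cultures (median 317) for Irf8, at -0.33 and not called. Irf1 rose with both types against untreated, by 2.18 and by 4.40, and differed by -2.22 ± 0.26. Irf9, the DNA-binding part of the type I complex, missed the minimum difference at 0.91 ± 0.22 (limma, adjusted p = 0.0015), and Irf2, Irf3 and Irf5 were not called.

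Feedback genes lay on both sides. Socs1, an inhibitor of JAK kinases, was at 32.5, 46.2 and 117 CPM with type I interferon and at 688.5, 825 and 1411 with IFNg, with no overlap, which gave -4.22 ± 0.38 (limma, adjusted p = 4.5e-15). Socs3, which restrains Stat3 signalling, was likewise higher with IFNg (-3.08 ± 0.54), and its IFNa and IFNb cultures differed by 2.37 in favour of IFNa, which fell to 0.85, not called, with plate in the model. Ptpn2, a phosphatase of JAK and STAT proteins, was called with IFNg in the pooled contrast (-1.26) and stood at -0.20 on the shared plates. Usp18, which removes Isg15 from proteins and blocks type I receptor signalling, was at 329, 458 and 566 CPM with type I interferon and at 28.8, 79.5 and 141 with IFNg, without overlap (2.41 ± 0.29).

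Antiviral effectors lay on the type I side. All 9 tested genes of the IFIT and ISG15 system were called higher with type I interferon, with a median difference of 2.09. So were 7 of 9 of the OAS family of 2′-5′ oligoadenylate synthetases (median 1.93) and 13 of 21 of the MX, IFITM and other effectors (median 1.55). None of these 39 tested genes was higher with IFNg, under the main, the median-ratio or the quantile scaling. On the shared plates the counts were 8 of 9, 6 of 9 and 13 of 21.

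Ifit3, which binds other IFIT proteins, was at 2754, 5016 and 11460 CPM with type I interferon and at 196, 400 and 581 with IFNg. The groups did not overlap, and the IFNg cultures were themselves above untreated by 2.05. Ifit1, which binds foreign RNA caps, was at 2069, 2410 and 3687 CPM against 218, 423 and 497 (2.82 ± 0.46). Reads of Ifit3 and its near-identical copy Ifit3b could be split between them by the quantification, as could those of Oas1a, Oas1b and Oas1g.

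Isg20 was at 47.0, 80.6 and 380 CPM with type I interferon, at 0.27, 1.68 and 9.06 with IFNg and at 0, 1.40 and 16.7 in untreated cultures. IFNg cultures thus overlapped untreated cultures for Isg20 (0.18, not called). The same held for Oas2 (0.21), for Mx2, a GTPase that restricts viruses (0.37), and for Slfn4 (0.35), while these 4 genes rose by 3.81 to 5.72 with type I interferon. Ddx60, a helicase of antiviral signalling, and Cmpk2, a mitochondrial nucleotide kinase, were called at 3.14 and 3.12.

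Of the 14 tested nucleic acid sensors, 7 were higher with type I interferon and 1 with IFNg (median 0.92). Ddx58, the RNA sensor RIG-I, was at 461, 764 and 1054 CPM against 98.7, 138 and 199 with IFNg (2.36 ± 0.19), without overlap. Tlr7, the endosomal receptor for single-stranded RNA, was at 64.1, 116 and 268 CPM with type I interferon, at 11.7, 17.2 and 35.6 with IFNg and at 39.02, 71.8 and 140 in untreated cultures. Its difference was 2.64 ± 0.21. Against untreated it fell by 1.80 on the log2 scale with IFNg and did not pass the minimum difference with type I interferon (0.84). Tmem173, the adaptor STING, was the sensor higher with IFNg, at 127, 176 and 268 CPM against 3.33, 44.1 and 77.7 (-2.36 ± 0.32). Of 12 Schlafen and PARP genes, 6 were higher with type I interferon and none with IFNg (median 0.99), among them Slfn8 at 2.28, Slfn1 at 2.15 and Parp10 at 1.38. Schlafen genes are close copies, which makes single values uncertain.

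The GTPases of cell-autonomous defence lay on the IFNg side. Of 10 tested guanylate-binding proteins, which attack vacuoles of intracellular microbes, 8 were higher with IFNg and none with type I interferon (median -2.60). All 10 rose against untreated with either type. Gbp2 was at 457, 680 and 1478 CPM with type I interferon and at 4081, 4739 and 6931 with IFNg, without overlap, at -2.78 ± 0.27. Gbp4 (-3.31) and Gbp8 (-3.96) did not overlap either.

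Gbp6 went the other way on the shared plates, at 0.55 (limma, adjusted p = 0.67) against -2.69 in the pooled contrast. It was at 0 in each of the 4 IFNa cultures of cell lot May16 and at 0 to 13.9 CPM in the 4 of lot Feb15. The IFNb cultures were at 11.9 to 64.4 CPM, and those of lot Feb15 at 51.7 to 59.6. Of 11 immunity-related GTPases, 4 were higher with IFNg and none with type I interferon (median -0.98). Iigp1, which disrupts parasite vacuoles, was at 43.3, 130 and 192 CPM against 749, 964 and 1041 (-2.86 ± 0.37), and Igtp, a regulatory member, differed by -1.41. Tgtp1 was called in the pooled contrast (-2.45), not on the shared plates (-2.18), and it shares sequence with Tgtp2.

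MHC class II and its loading machinery had the lowest median of the gene lists as deposited. Of 10 tested genes, 8 were higher with IFNg and none with type I interferon, with a median of -3.58. After median-ratio scaling 11 class II genes passed the filter and their median was -2.41, so these medians are not of the same genes. The guanylate-binding proteins were then lower, at -2.49. After quantile normalisation, again with 10 genes tested, the class II median was -3.38. H2-Aa, the alpha chain of I-A on chromosome 17 (34282744 to 34287823, GRCm38.p6), was at 0, 2.89 and 13.1 CPM with type I interferon, at 916, 1029 and 1726 with IFNg and at 0, 0.963 and 12.4 in untreated cultures. The type I cultures overlapped the untreated ones and were below every IFNg culture. H2-Eb1 was at 0, 0.785 and 10.9 CPM against 447, 646 and 977. Cd74, the chaperone of class II molecules, was at 0, 0.653 and 9.50 against 88.3, 132 and 169, and H2-DMa, which helps load peptide, at 0.654, 11.5 and 59.9 against 197, 318 and 464.

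Low class II values without IFNg went with the library pool. In pools that also held IFNg cultures, H2-Aa was at 3.38 to 12.4 CPM in untreated cultures (n = 11) and at 5.79 to 13.1 in IFNb cultures (n = 6). In the other pools it was at 0 to 4.19 in untreated (n = 29), 0 to 5.25 in IFNb (n = 4) and 0 to 1.83 in IFNa cultures (n = 8). The difference called for H2-Aa between IFNa and IFNb (-2.45) is of genes at these levels, and with plate in the model it was -1.46 and not called. The part of the pools in it was not tested.

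MHC class I genes were on the other side, though less so. Of 12 tested, 5 were higher with type I interferon and none with IFNg (median 0.45; 3 of 12 on the shared plates), and against untreated cultures all 12 rose with type I interferon and 11 with IFNg. H2-T22 was at 112, 174 and 250 CPM against 32.2, 38.1 and 58.4, without overlap (1.96 ± 0.25). H2-Q6 (1.79), H2-T24 (1.48) and H2-Q7 (1.29) were also called, and reads of the Q and T genes could be split among near-identical copies. The genes of peptide loading and the immunoproteasome did not follow class I. None of 14 was higher with type I interferon and 4 were higher with IFNg (median -0.85), namely Lap3 (-1.90), an aminopeptidase, Tapbpl (-1.70), a peptide editor, and Psme2 and Pdia3 (both -1.08). Lap3 and Tapbpl were called on the shared plates, Psme2 (-0.77) and Pdia3 (-0.85) were not, and 2 of 14 were called after either other scaling.

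**Figure D2:**
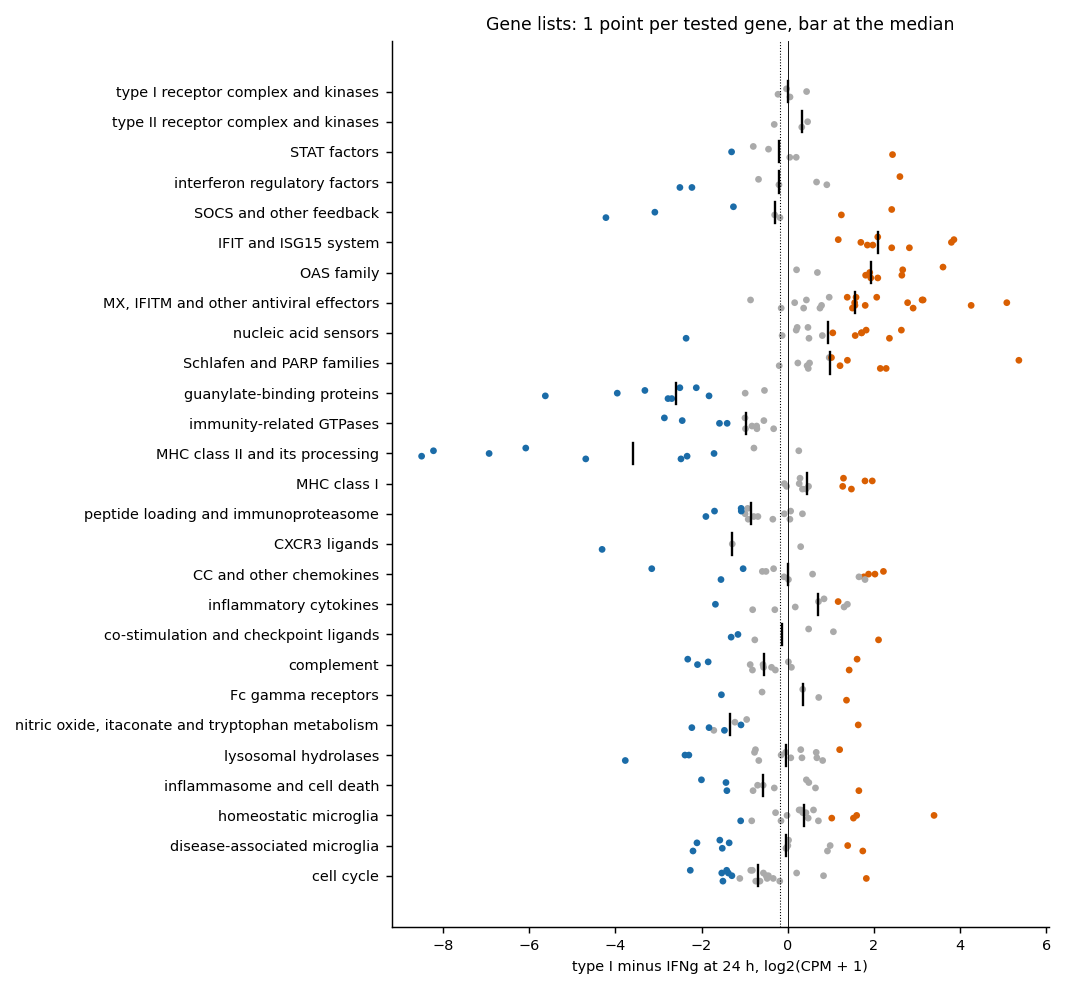
Differences of type I minus IFNg (log2 scale) for the tested members of 27 gene lists, with points coloured by call, a bar at each list's median and a dotted line at the median of all genes. The IFIT, OAS and MX lists lie to the right and the guanylate-binding protein and MHC class II lists to the left.

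Of the 3 CXCR3 ligands, which attract T cells, only Cxcl9 was called in the pooled contrast. It was at 8.32, 32.3 and 83.7 CPM with type I interferon, at 509, 582.5 and 1369 with IFNg and at 0.187, 4.83 and 19.2 in untreated cultures. These groups did not overlap between the types, at -4.31 ± 0.38 (limma, adjusted p = 2e-15). Cxcl10 was at 56.5, 155 and 410 CPM against 94.8, 130 and 165, and rose against untreated by 4.22 and 3.92, so that its difference of 0.30 ± 0.58 was not called. Cxcl11 was at -1.29 ± 0.52 (limma, adjusted p = 0.075), and with plate in the model it was called as well (-1.42).

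Of 15 CC and other chemokines, 4 were higher with type I interferon and 3 with IFNg. The counts were 3 and 1 with plate in the model, and on the shared plates 4 of 13 were higher with IFNb and 1 with IFNg. Ccl9 (1.88), Ccl4 (2.02) and Ccl5 (2.22) were on the type I side, Ccl5 at 0.95 and not called with plate in the model. Ccl9 was at 146, 184 and 268 CPM against 23.7, 61.6 and 76.1, without overlap, and it did not pass the test against untreated with IFNg (-0.11). Ccl22, which attracts regulatory T cells, was higher with IFNg (-3.15 ± 0.45), at 0, 0.294 and 3.48 CPM against 0, 29.3 and 51.7.

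Among 9 tested inflammatory cytokines, Il15, a survival factor of NK cells, was higher with type I interferon (1.17) and Il27 with IFNg (-1.68), and neither was called on the shared plates. Il1a and Il1b were not called (1.31 and 1.38) and were higher with IFNa than with IFNb by 3.15 and 2.61. With plate in the model these differences were 0.96 and 0.37, neither of them called, and IFNa and IFNb share no plate. The acute-phase gene Saa3 was called in the pooled contrast (1.65) and was at 0.21 on the shared plates. It was high on both IFNa plates in untreated wells as well, at 91.2 to 137.5 and 208.7 to 272.2 CPM beside 99.5 to 175.7 and 209 to 441 in the IFNa wells.

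The co-stimulatory ligand Cd86 was at 15.8, 51.1 and 85.1 CPM with type I interferon and at 47.7, 134 and 195 with IFNg, overlapping, with -1.31 ± 0.30 (limma, adjusted p = 0.00078). On the shared plates Cd86 stood at -1.0 and was not called. The checkpoint ligand Cd274 was likewise called in the pooled contrast, at -1.16, and not on the shared plates (-0.99). Lgals9, a galectin that binds the T cell receptor Tim-3, was on the type I side, at 1545, 2238 and 3283 CPM against 303, 543 and 693 (2.11 ± 0.18), without overlap.

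Complement and Fc receptor genes were split within each family. C2, a protease of the classical pathway, was at 48.4, 131 and 272 CPM with type I interferon against 18.8, 35.5 and 102 with IFNg (1.61 ± 0.29). The regulator Serping1 (-2.32) and the protease C1ra (-1.85) were higher with IFNg. In all, 2 of 13 complement genes were higher with type I interferon and 3 with IFNg. Of 5 Fc gamma receptor genes, Fcgr1, the high-affinity receptor, was higher with type I interferon (1.36 ± 0.20, without overlap), and the low-affinity receptor Fcgr3 was higher with IFNg (-1.54 ± 0.15, without overlap). Lgals3bp, a secreted glycoprotein, was at 954, 2027 and 2989 CPM against 365, 599 and 962 (1.67 ± 0.24).

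Metabolic and lysosomal genes lay on both sides. Of 8 tested genes of nitric oxide, itaconate and tryptophan metabolism, 4 were higher with IFNg and 1 with type I interferon (median -1.35), and after either other scaling 3 were higher with IFNg. With plate in the model 6 of 8 were higher with IFNg, and on the shared plates 2 of 6. Irg1, the itaconate synthase, differed by -1.83 ± 0.52, and Kynu, of tryptophan breakdown, by -2.23 ± 0.24 at a low level (median 4.77 CPM with IFNg). Nos2, which makes nitric oxide, was at -1.72 ± 0.66 (limma, adjusted p = 0.060), and was called with plate in the model (-2.71). Gch1, which makes a cofactor of nitric oxide synthase, was the exception (1.64 ± 0.26).

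Naaa, a lysosomal amidase of the fatty acid amide palmitoylethanolamide, was at 1.18, 7.49 and 14.02 CPM with type I interferon and at 20.6, 113 and 172 with IFNg, without overlap (-3.77 ± 0.35). Ppt1, a thioesterase, was at -2.38 and Ctsc, a protease that activates granule enzymes, at -2.29. In contrast Npc2, which moves cholesterol out of lysosomes, was higher with type I interferon (1.204 ± 0.13, without overlap; 0.93 with plate in the model, short of the minimum). The other 11 of the 15 lysosomal genes were not called. In the inflammasome and cell death list 3 of 11 were higher with IFNg, Nlrp3 (-2.002), its adaptor Pycard (-1.41) and the kinase Ripk3 (-1.43), and Daxx was higher with type I interferon (1.65). Zyx, a focal adhesion protein, was at 24.96, 51.6 and 109 CPM against 283, 398 and 447, without overlap (-2.79 ± 0.23).

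Of 16 tested genes that mark homeostatic microglia, 4 were higher with type I interferon and 1 with IFNg (median 0.39), and on the shared plates 1 was in each direction. Against untreated cultures 5 fell and 1 rose with type I interferon, and 8 fell with IFNg. Olfml3 was at 12.7, 82.3 and 652 CPM with type I interferon, at 3.22, 5.55 and 27.2 with IFNg and at 12.5, 58.7 and 502 in untreated cultures. Its level went with the plate, since IFNa cultures of the May16 plate were at 317 to 652 CPM and untreated wells beside them at 191 to 502. On the shared plates its difference was 2.08 and called. Fcrls (1.52) and Tmem119 (1.60), both markers of resident microglia, were at 0.51 and 1.42 there, and neither was called.

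The disease-associated genes gave 2 of 13 higher with type I interferon and 5 with IFNg. Apoe, a lipid carrier, was at 5989, 16410 and 33390 CPM against 2259, 4347 and 10590 (1.74 ± 0.28), but at 0.49 on the shared plates, where it was not called. Lpl, lipoprotein lipase, was at 698, 1500 and 3156 CPM against 4375, 6787 and 9241, without overlap (-2.20 ± 0.31; -1.39 and called on the shared plates). Itgax, the integrin CD11c, fell with type I interferon by 2.01 from untreated and was not called with IFNg (0.10).

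Of 21 cell cycle genes, 6 were higher with IFNg and 1 with type I interferon (median -0.69). On the shared plates none was higher with IFNg and 1 was higher with IFNb. Against untreated, 14 of the 21 fell with type I interferon and 4 with IFNg. Rrm2, which makes deoxynucleotides, was at 0, 3.79 and 25.9 CPM with type I interferon, 8.23, 20.7 and 30.6 with IFNg and 0, 23.2 and 74.4 in untreated cultures, and its difference of -2.26 was -0.51 on the shared plates. In bulk cultures fewer cells of a kind and less RNA per cell cannot be told apart.

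Markers of astrocytes and blood cells were low in both groups. The summed level of the 8 astrocyte markers was 2.66 to 33.3 CPM with type I interferon and 9.19 to 21.1 with IFNg, with Aqp4 at 0 in every type I culture and Gfap at 0 in every IFNg culture. T and NK cell markers summed to at most 9.29 and 3.33 CPM, B cell markers to at most 2.85 and 1.91, and neutrophil markers to at most 2.92 and 2.31. Fibroblast and mural markers ranged more widely, at 0 to 800.0 and 13.04 to 398 CPM, with Lum at 0 throughout, and none of their 4 tested genes was called. Oligodendrocyte markers summed to 31.6 to 139 and 20.6 to 86.4 CPM with Mog, Olig1 and Olig2 at 0, and endothelial markers to 39.7 to 229 and 46.5 to 110 with Cldn5 and Tek at 0. The other members of these 2 lists were read in at least 1 culture of each group. Of the 4 tested oligodendrocyte genes 1 was called, Cspg4 (2.60), and of the 3 tested endothelial genes 1, Kdr (2.69). Both were higher with type I interferon.

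The dendritic cell list summed to 39.6 to 182 CPM with type I interferon (median 104), 134 to 489 with IFNg (median 336) and 23.1 to 703 in untreated cultures (median 288). The type I and IFNg ranges overlapped, 2 of its 5 tested genes, Clec9a and Itgax, were higher with IFNg, and Cd209a was at 0 in both. Clec9a, a receptor for dead cells on cross-presenting dendritic cells, was at 0, 0 and 3.91 CPM with type I interferon and at 0, 84.0 and 122 with IFNg. Its IFNg values went with the cell lot, at 78.2 to 122 CPM in lot March15 (n = 6) and at 0 to 24.5 in lot Feb15 (n = 3). On the shared plates, which hold both lots, the difference was -4.25 and called. Monocyte and perivascular macrophage markers summed to 45.5 to 204 CPM with type I interferon, 63.8 to 173 with IFNg and 158.5 to 547 in untreated cultures, and none was called between the types. The homeostatic microglial list summed to 2900 to 6790 CPM with type I interferon and 2790 to 5422 with IFNg, with Slc2a5 at 0 in every type I culture. The part of other cells in the results was not tested.

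Each type was also set against untreated cultures, which both share, so that the values are given side by side only. With type I interferon 539 genes (4.5%) were higher and 976 (8.14%) lower than untreated, and with IFNg 758 (6.32%) were higher and 741 (6.18%) lower. Over all tested genes 305 rose with both types and 346 fell with both. In the counts below, alone means only that the gene was not called against untreated with the other type. Of the 392 genes higher with type I than IFNg, 126 rose with type I interferon alone, 69 rose with both, 105 fell with IFNg alone and 77 were called against untreated with neither. The remaining 15 fell with both (10) or moved in opposite directions (5). Of the 887 higher with IFNg, 284 rose with IFNg alone, 52 rose with both, 211 fell with type I interferon alone, 317 were called with neither, 8 fell with both and 15 moved in opposite directions.

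Genes that rose with one type and fell with the other were few, 20 in all, and were looked at after their values were seen. Ms4a7, a membrane protein of brain macrophages, was at 429, 577 and 964 CPM with type I interferon, at 71.7, 100.2 and 124 with IFNg and at 149, 273 and 627 in untreated cultures. The type I and IFNg cultures did not overlap, and Ms4a7 rose by 1.06 with the former and fell by 1.56 with the latter, with a difference of 2.62 ± 0.16 (2.72 on the shared plates). Ms4a14, Rnf144b, Stra6l and Zeb1 moved the same way, but with plate in the model the fall of Ms4a14 with IFNg was short of the minimum (-0.91). The reverse held for 15 genes, of which 7 kept both calls with plate in the model, among them the serine synthesis enzyme Psat1 and the dendritic cell factor Batf3. The adaptor Dok2 and the kinase Fyn did not, as their rise with IFNg was then 0.965 and 0.80. Dok2 was at 10.5, 47.2 and 61.0 CPM with type I interferon against 137, 210 and 318 with IFNg and 41.4, 89.2 and 182 in untreated cultures (-2.47 ± 0.22), and the types did not overlap. Between the types, Ms4a7, Dok2, Fyn, Psat1 and Batf3 were called on the shared plates too. Batf3 was low, at medians of 0 CPM with type I interferon, 11.1 with IFNg and 2.53 in untreated cultures, so its fall rests on few reads.

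**Figure D3:**
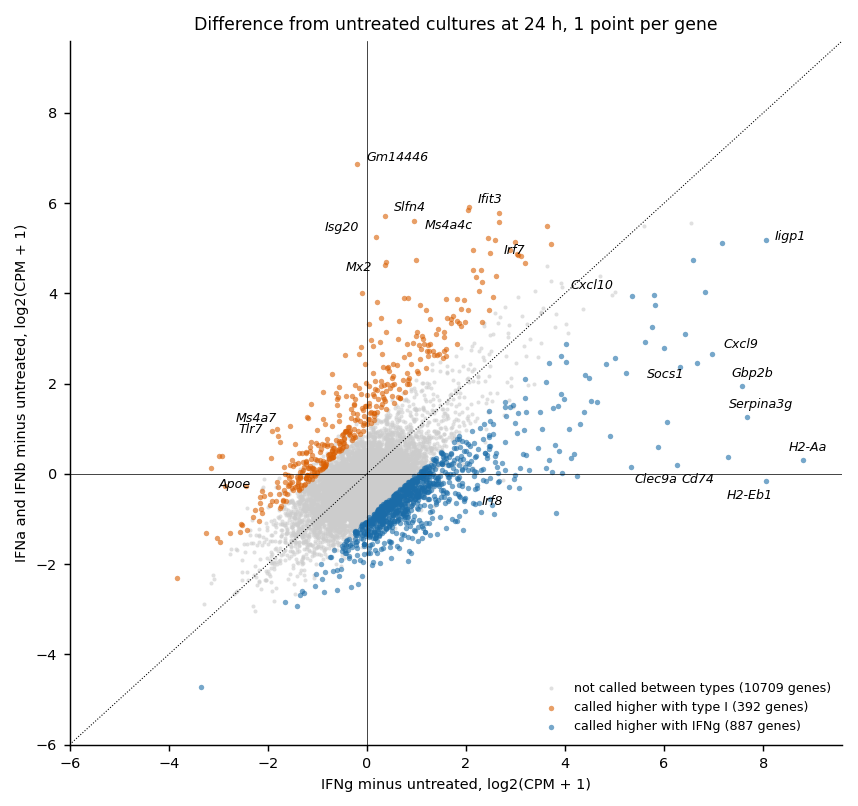
Difference from untreated cultures with IFNg (x axis, log2 scale) and with type I interferon (y axis, log2 scale) for the 11988 genes tested at 24 h, coloured by the call between the types (392 higher with type I, 887 higher with IFNg, 10709 not called). Both axes use the same untreated cultures; Cxcl10 lies near the diagonal, and H2-Aa is high on the IFNg axis at 0.31 on the other.

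The type I cultures pooled here were not all alike. Between IFNa and IFNb 163 genes (1.36%) were called, 39 higher with IFNa and 124 with IFNb, but the 2 interferons share no plate. With plate in the model, which links them through untreated wells, 20 genes were called, 3 higher with IFNa and 17 with IFNb. Of these, 13 were called in both fits, in the same direction. They included the interferon-stimulated gene Ifi44l (-2.50 ± 0.45), the interleukin 1 receptor antagonist Il1rn (-1.38) and the transporter Abcg2 (-2.73), all higher with IFNb and named after their values were seen. Ifi202b (-1.92), Ms4a4b (-2.71) and Gbp6 (-3.98) were among the 13 as well. In the IFNa cultures of lot May16, Ifi202b and Gbp6 were at 0 and Ms4a4b at up to 2.76 CPM. Gbp6 was at 0 to 13.9 CPM in the other IFNa cultures. The part of the cell lot in these calls was not tested. The interferon-stimulated genes Rtp4 (-1.41) and Oasl2 (-1.07) were called only with plate in the model, and without it their differences were -0.38 and 0.0009, with medians for Oasl2 of 403 CPM with IFNa and 423 with IFNb. Doses differed as well. Among the genes leading the contrast, Slfn4 differed between IFNa and IFNb by 0.25, Ms4a4c by 0.27, Mx2 by -0.22 and Oas2 by -0.01, none of them called, while Pydc4 (2.49), Olfml3 (2.42) and Gm4955 (2.07) were called higher with IFNa. With plate in the model these 3 were at 1.495, 0.46 and 0.99 and were not called.

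Some of the largest differences between IFNa and IFNb, and part of the type I levels, went with the lot of cells. At 24 h, lot May16 was present on a single plate, with 4 IFNa and 8 untreated cultures and no IFNg. Ifi202b, an interferon-inducible gene of the Ifi200 cluster on chromosome 1 (173962569 to 173982844, GRCm38.p6), was at 0 in all 12 of these cultures. In the other lots it was at 21.7 to 115 CPM in untreated cultures, 200 to 406 with IFNg and 252 to 672 with type I interferon. Its pooled difference was -1.39 ± 1.03, not called, and on the shared plates 0.59.

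Neighbours of Ifi202b in the cluster went the other way. Pyhin1 (Ifi209 in RefSeq) was at 1381 to 2173 CPM in the May16 IFNa cultures, at 58.8 to 167 in the other type I cultures and at 3.29 to 23.4 with IFNg. Untreated May16 cultures were at 37.7 to 86.1 CPM of Pyhin1 and those of the other lots at 0 to 12.4. Pydc4 (Ifi213) was at 128.5 to 380 CPM in the May16 IFNa cultures and at 3.403 to 82.2 in the other type I cultures, and Gm4955 (Ifi206) at 149 to 188 and 1.11 to 21.9. All were called on the shared plates, which hold no May16 cells, at 3.02, 3.52 and 3.90. Gbp2b on chromosome 3 and Ms4a4b on chromosome 19 were near 0 in the May16 IFNa cultures, at up to 0.751 and 2.76 CPM, and at up to 22.5 and 267 in the other type I cultures.

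**Figure D4:**
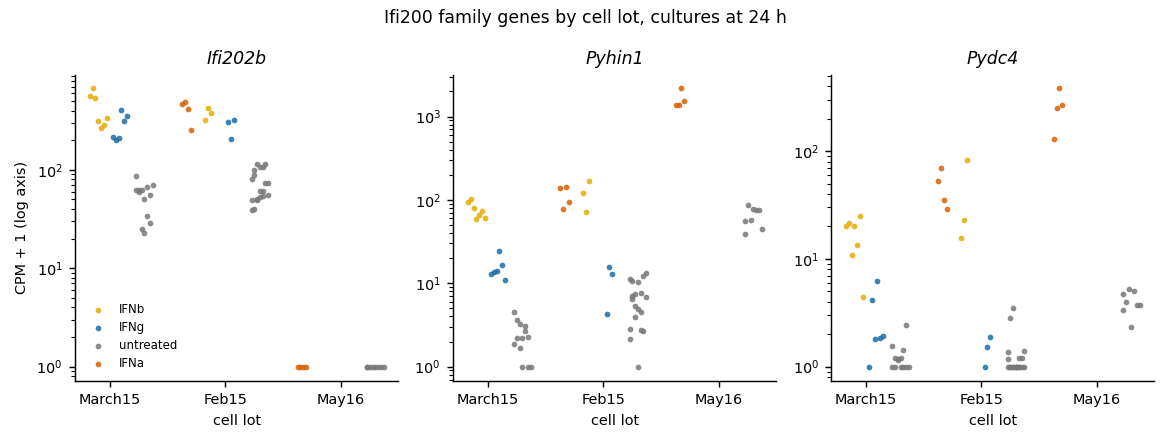
Levels of Ifi202b, Pyhin1 and Pydc4 (CPM + 1, log axis) in each 24 h culture by cell lot, for IFNa, IFNb, IFNg and untreated cultures. Ifi202b is at 0 in all 12 cultures of lot May16, where Pyhin1 and Pydc4 are highest.

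At 72 h the contrast was repeated in cultures that share no sample with it. Of 11490 genes tested, 417 (3.63%) were higher with type I interferon and 163 (1.42%) with IFNg, with a median difference of 0.24. Of the 373 type I genes of 24 h that could be tested, 157 were called again and none in the opposite direction. Of 800 IFNg genes 97 were called again and 2 in the opposite direction. All 72 h cultures came from lot May16, so time and lot cannot be told apart.

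H2-Aa at 72 h was at 0, 0 and 14.4 CPM with type I interferon and at 329, 1087 and 9114 with IFNg. Slfn4 was at 0, 74.8 and 179.6 CPM against 0, 1.61 and 4.94, with overlap at 0, and Ifit3 at 1696 to 5860 against 405 to 1144, without overlap. Cxcl9 remained higher with IFNg (-4.64) although its IFNg cultures spread from 0.807 to 558 CPM. Socs1 was at -3.17 and Irf7 at 3.41, both called. Tmem173, called at 24 h, was at 0.04 at 72 h, and Ccl5 at -0.06. For neither gene was the change of the difference between the times called (2.40 ± 0.82 and -2.28 ± 0.85).

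The change of the type difference from 24 to 72 h was called for 479 of 12923 genes (3.71%), 423 of them upward and 56 downward. The median difference over all genes tested also lay higher at 72 h (0.24) than at 24 h (-0.17). The change was not fitted under other scalings, so the part of this shift in the split was not tested. Ly6a, a membrane antigen induced by interferons, was at 23.3, 154.5 and 341 CPM with type I interferon and 302, 399 and 1424 with IFNg at 24 h. At 72 h it was at 0, 9.93 and 32.7 CPM against 471.5, 854 and 1021, so that its difference went from -2.06 to -6.76. The long noncoding transcript AW112010 was at similar levels with both types at 24 h (0.56, not called), and higher with IFNg at 72 h (-3.58).

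**Figure D5:**
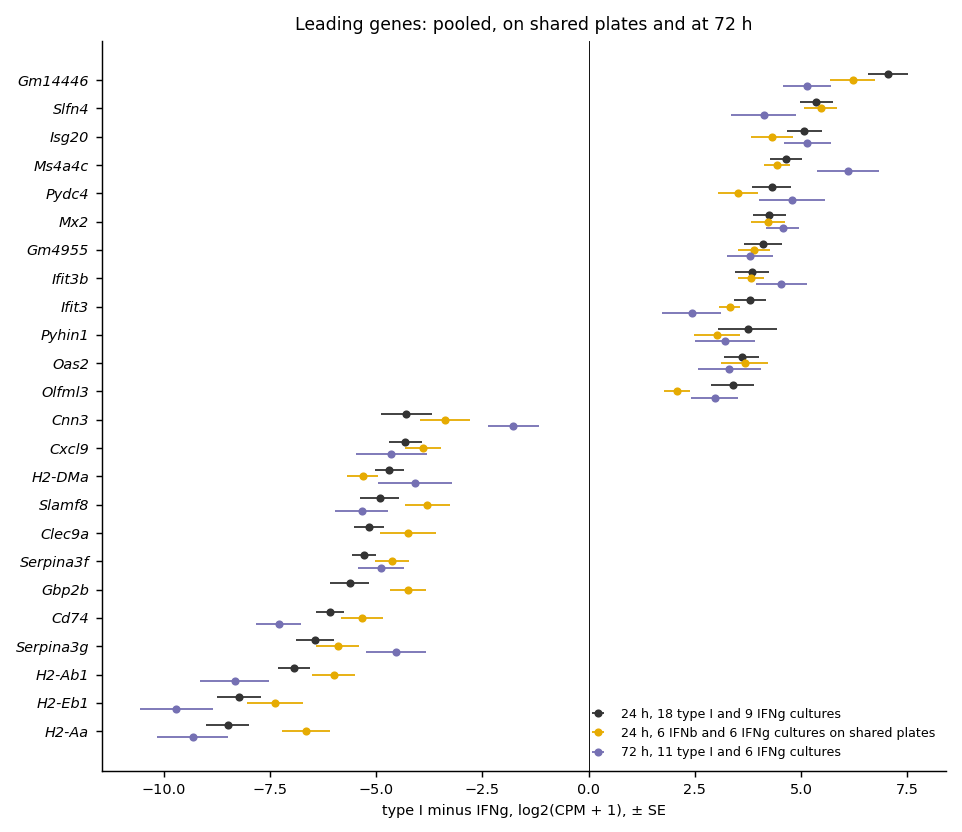
Differences of type I minus IFNg (log2 scale, bars ± standard error) for the 12 genes with the largest values in each direction, in the pooled 24 h contrast, for IFNb minus IFNg on the shared plates, and at 72 h. The direction is the same in each contrast shown, and the shared-plate cultures are also in the pooled contrast. Clec9a and Gbp2b were not tested at 72 h.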

How the data were processed

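Primary mouse microglia in culture were profiled by 3′-end RNA sequencing. Per the labels and the study's methods, Salmon 0.7.1 was used on mouse transcripts, and the authors deposited CPM per gene, normalised to mapped reads. The columns used sum to 996124 to 999918 CPM. Among the low values of a column, worth few reads, only 70.9% to 89.1% lay near a whole number of reads, so no count test was run. The labels name the build mm8, and symbols were used as the table gives them.

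Groups came from the labels, and plate, pool and cell lot from the table's header, where the row read as cell lot is named Source ID. Depth was estimated from the commonest low value of each column, taken as 1 read. Genes above 5 CPM in at least 4 cultures (11988 of 45581) were tested on log2(CPM + 1) with limma 3.58.1 (trend, R 4.3.3) over 67 cultures, type I, IFNg and untreated, with no covariate. Adjustment was Benjamini-Hochberg over all tested genes, with a threshold of 0.05 and a minimum difference of 1. The fits were tested on simulated data. An exact 2-sided rank-sum test with Bonferroni adjustment, which the study gives under general statistics and not for single genes, was an alternative, beside other scalings, filters, pseudocounts, plate or pool in the model, and leaving out each plate. Depth sets the precision, and low values rest on few reads.

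The genes named were the 12 largest called differences in each direction (mean of at least 10 CPM in the higher group, the same sign for IFNa and IFNb), genes the study names for an interferon type, up to 4 members of each of 37 gene lists, all receptor, STAT and IRF genes, and 5 genes each for IFNa against IFNb and for the change between times. Genes that these rules take in but that the text leaves out are not reported here. Others are marked as chosen after their values were seen. The comparison and the lists were chosen with earlier results of these data known.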

Additional observations from a re-analysis of the deposited data

Results flagged for a closer look

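Among 33 genes checked in each of 3 groups at 24 h (99 groups), 10 groups held a culture far from the others. The measure was the gap to the nearest culture over the whole range on the scale of log2(CPM + 1) (Dixon's 95% limit). Where all other cultures are at 0, as for Clec9a with IFNa, any value above 0 is flagged. Chance flags about 1 in 20 groups. Clec9a was flagged in each group, with a highest IFNa culture at 0.167 CPM among values of 0, a highest IFNb culture at 3.91 CPM and a lowest IFNg culture at 0, where the next was at 24.2 CPM. H2-Aa had a highest IFNa culture at 1.83 CPM and a lowest IFNb culture at 0. The lowest IFNb culture for Gm4955 was at 1.11 CPM, next to 7.41, and the lowest IFNa culture for Ms4a4c at 244.5 CPM, next to 377. With IFNg the lowest culture was at 20.6 CPM for Naaa, next to 73.3, and at 3.29 CPM for Pyhin1, next to 9.92. Socs1 had a highest IFNb culture at 89.4 CPM, next to 51.4.

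The difference between the types itself differed between 24 and 72 h (limma, adjusted p under the threshold) for 5 genes with the largest change. The change, 72 h minus 24 h on the log2 scale, was -4.70 ± 0.87 for Ly6a, 4.22 ± 1.22 for Gm16933, -4.14 ± 0.78 for AW112010, -3.98 ± 0.52 for Clic5 and 3.83 ± 0.36 for Itpka. Clic5, a chloride channel protein, was at 5.72, 83.3 and 193 CPM with IFNg at 72 h (lowest, median, highest) and at 0.555, 3.43 and 7.34 at 24 h. Itpka, an inositol kinase, went from 10.5, 15.1 and 25.03 CPM with IFNg at 24 h to at most 1.41 at 72 h. Gm16933 overlapped between the types at both times. All 72 h cultures came from a single cell lot that held no IFNg culture at 24 h.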

How the results depend on the processing

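No paired analysis was possible by single culture because the labels give no replicate numbers, and culture plate and library pool were fitted as blocks instead. The counts of 392 genes higher with type I interferon and 887 higher with IFNg moved most on the IFNg side. There the count was 531 with culture plate in the model, 496 with library pool in the model, 1394 with IFNa alone, 552 with IFNb alone, 457 with a pseudocount of 5 CPM, 520 without the plate MG160831, which held 3 IFNg and no type I cultures, and 292 on the shared plates. With no minimum fold the counts were 682 and 1467, with a minimum log2 difference of 2 they were 75 and 157, and with the exact rank-sum test and Bonferroni adjustment 145 and 198. Against untreated, no minimum fold gave 1143 higher and 2972 lower with type I interferon and 1311 and 1368 with IFNg, and a pseudocount of 5 CPM gave 344 and 385 lower. IFNa against IFNb gave 20 genes with plate in the model and 93 with no filter on low values, and the change between times gave 231 with plate in the model. The cause was not tested. Of the 156 named genes 109 were called, and 77 of these kept direction and call under all 22 alternatives. Gbp6 was reversed on the shared plates (0.55). Depth limits genes of a few CPM, as the shallowest interferon culture had an estimated 1215000 mapped reads.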
